A study of Mus musculus with 18 samples.

Results

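The genes described here are 10 members of the AP-1 and immediate-early group, namely the Fos family (Fos, Fosb, Fosl1 and Fosl2), the Jun family (Jun, Junb and Jund) and the immediate-early genes Egr1, Ier2 and Nr4a1. They were taken by symbol from the deposited tables of all 18 samples, and all 10 symbols were found among the 24338 that the tables of tissue and of cultures share. Polyadenylated RNA was sequenced from whole inguinal fat of mice (iWAT, a subcutaneous white depot) and from cultures of its stromal-vascular fraction (ingSVF), which holds the precursors of fat cells. The 6 groups of 3 libraries were NFIA-Tg iWAT and WT iWAT, NFIA-Tg cultures and WT cultures at day 7, and NFIA-Tg cultures and WT cultures at day 0. NFIA-Tg mice or cells carry a transgene that encodes NFIA, a DNA-binding protein of the nuclear factor I family, and WT stands for wild type. Day 0 precedes differentiation and day 7 follows it. The cultures grew in medium with fetal bovine serum and, at confluence, received isobutylmethylxanthine, indomethacin, dexamethasone, insulin, T3 and rosiglitazone for 48 h, then insulin, T3 and rosiglitazone alone. The sources used here do not give the promoter of the transgene, the age of the mice, or whether the 3 replicates of a group are separate animals or cultures. P-values therefore measure only how far these samples vary, and that variation may be technical.

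AP-1 is a pair of basic leucine zipper proteins, either a Fos protein with a Jun protein or a pair of Jun proteins. It binds DNA sequences of the form TGANTCA, though not every base at N gives a site. Fos, Fosb, Jun, Junb, Egr1, Ier2 and Nr4a1 belong to the immediate-early genes, whose transcription starts within minutes of serum, growth factors or cAMP without new protein synthesis. Their messenger RNAs are short-lived, and dissection and dissociation of tissue are known to induce them. Jund is more evenly expressed, while Fosl1 and Fosl2 lack the strong activation domain of Fos and Fosb and are induced later. In fat, AP-1 proteins are known for roles in the commitment and proliferation of preadipocytes, and Nr4a1, an orphan nuclear receptor, is known to respond to cAMP.

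The culture libraries held 16772594 to 28625625 reads, recovered from the deposited values. Read depth in iWAT is unknown, where values in FPKM (fragments scaled to transcript length and library depth) summed to 444682 to 487844. Within groups, log2(FPKM + 1) across genes correlated between libraries at r = 0.976 to 0.985 in iWAT and 0.994 to 0.997 in cultures. Nfia, the targeted gene, averaged 141 ± 36.0 FPKM in NFIA-Tg iWAT and 3.96 ± 0.228 in WT iWAT (SD, n = 3 each). At day 0 it averaged 11.9 ± 0.584 FPKM in the libraries labelled NFIA-Tg and 6.41 ± 0.104 in WT. At day 7 it went against the label, with 6.99 ± 0.475 FPKM in the libraries labelled NFIA-Tg and 12.5 ± 0.518 in WT, so every NFIA-Tg culture below is a library labelled NFIA-Tg. The adipocyte markers Adipoq and Plin1 were at 240 to 276 and 366 to 399 FPKM in NFIA-Tg day 7 libraries and at 1275 to 1325 and 398 to 421 FPKM in WT day 7 libraries, against at most 0.583 FPKM in any day 0 library.

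Promoters are shown first for Nr4a1 and Junb, the members that fell most with differentiation, for Fos and Jun, the founders of the AP-1 families, and for Fosl2, whose response differed most between genotypes. RefSeq windows of build GRCm38.p6 were used for 7 of the 10 members, without Fosl1, Egr1 and Ier2. Members' windows on a single chromosome were left out by choice, whereas the set of all windows was not filtered in this way. The 7 are therefore not the outcome of matching alone. The 250 bases before the annotated start are given 5′ to 3′ on the strand of the gene. In the first 4 windows, capitals mark TGACG or its complement CGTCA, the core of the cAMP response element TGACGTCA, and the element TGACATCA, through which AP-1 is known to bind the Jun promoter. In the last, capitals mark TTGGC or GCCAA, a single arm of the palindrome bound by nuclear factor I, in which TTGGC and GCCAA stand 5 bases apart. Each of the first 4 windows also holds such an arm, left there in lower case. The windows lie at chr15:101266596-101266845 on the plus strand for Nr4a1, chr8:84978749-84978998 on the minus strand for Junb, chr12:85473640-85473889 on the plus strand for Fos, chr4:95052223-95052472 on the minus strand for Jun and chr5:32136222-32136471 on the plus strand for Fosl2.
Nr4a1: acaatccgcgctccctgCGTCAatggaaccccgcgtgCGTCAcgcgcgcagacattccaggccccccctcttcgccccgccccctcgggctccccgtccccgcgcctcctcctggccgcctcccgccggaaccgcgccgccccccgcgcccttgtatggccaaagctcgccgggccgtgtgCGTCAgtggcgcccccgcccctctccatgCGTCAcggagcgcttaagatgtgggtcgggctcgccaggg
Junb: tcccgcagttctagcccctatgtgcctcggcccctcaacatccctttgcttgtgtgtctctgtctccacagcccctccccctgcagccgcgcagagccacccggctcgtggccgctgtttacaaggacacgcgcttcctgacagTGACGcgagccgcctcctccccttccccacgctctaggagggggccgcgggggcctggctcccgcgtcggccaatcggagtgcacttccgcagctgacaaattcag
Fos: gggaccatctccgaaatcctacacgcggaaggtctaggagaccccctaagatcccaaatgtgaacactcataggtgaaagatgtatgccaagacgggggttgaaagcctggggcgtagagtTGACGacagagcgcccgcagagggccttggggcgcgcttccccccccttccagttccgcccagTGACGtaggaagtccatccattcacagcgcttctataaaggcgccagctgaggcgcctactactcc
Jun: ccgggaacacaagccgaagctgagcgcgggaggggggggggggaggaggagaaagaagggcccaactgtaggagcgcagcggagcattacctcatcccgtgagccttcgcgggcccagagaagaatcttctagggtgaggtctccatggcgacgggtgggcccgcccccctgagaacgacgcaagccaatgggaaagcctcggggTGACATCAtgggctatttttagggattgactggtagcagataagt
Fosl2: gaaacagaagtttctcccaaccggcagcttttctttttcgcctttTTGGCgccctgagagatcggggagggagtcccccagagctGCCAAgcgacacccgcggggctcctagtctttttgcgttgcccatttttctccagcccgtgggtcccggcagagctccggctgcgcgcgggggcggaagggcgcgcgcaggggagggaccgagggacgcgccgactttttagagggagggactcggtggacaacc

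The core TGACG was found on either strand in 4 of the 7 windows (Nr4a1, Fos, Fosb and Junb), against 17.8% of the 32851 RefSeq windows of that length. Nr4a1 held 4 copies, all on the strand opposite to the gene, and 0.137% of windows held as many. Fos held 2 copies, starting 129 and 66 bases before the start, with the TATA box TATAAA starting 33 bases before it. The full element TGACGTCA, found in 1.55% of windows, was in none of the 7. The form TGANTCA of the AP-1 site, searched with any base at N and found in 6.75%, was also in none of them. The CArG box, a run of A or T between CC and GG, was found in 1.47% of windows and also in none of the 7. None of these counts covers Egr1, Fosl1 or Ier2, whose windows were not used, so an absence from the 7 does not extend to them. The element TGACATCA, found in 2.93% of windows, lay in the Jun window alone, starting 45 bases before the start. Single arms of the nuclear factor I site were in 5 of the 7 windows and in 41.5% of all windows, and the full palindrome was in none of the 7. Both arms in the Fosl2 window, one on each strand, started 205 and 165 bases before the start, too far apart to form 1 palindrome. The TGACG count includes any TGACGTCA, and overlapping matches were counted separately. These matches are descriptions of letters in a window, and binding was not measured.

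The differentiation comparison asks how each gene stood after adipogenic induction relative to before it. All 9 members tested in the cultures fell in NFIA-Tg, where 41.5% of all 12553 tested genes were called lower and 45.7% higher (87.2% in either direction). In WT, 8 of the 9 fell, where 35.4% of genes were called lower and 46.2% higher (81.6% in either direction). Calls are those of limma with a Benjamini-Hochberg adjusted p below 0.05, and changes are on the log2(FPKM + 1) scale, which understates those of low genes. The median change of the members was -1.03 in NFIA-Tg and -1.08 in WT, against 0.05 and 0.09 for all tested genes. Fosb did not reach the minimum of 1 FPKM in 3 libraries and was not tested.

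The largest falls were of Nr4a1, the nuclear receptor gene, and Junb, a Jun family member known to restrain Jun. Nr4a1 was at 1.31, 1.13 and 1.23 FPKM in NFIA-Tg day 7 libraries, against 12.5, 16.9 and 15.4 FPKM in NFIA-Tg day 0 libraries. In WT it was at 1.87, 1.81 and 1.82 FPKM at day 7, against 14.5, 14.6 and 11.4 FPKM at day 0. All 6 day 7 libraries lay far below all 6 day 0 libraries. The change was -2.83 (SE 0.101, adjusted p = 1.83e-11) in NFIA-Tg and -2.35 (SE 0.101, adjusted p = 2.17e-10) in WT. Junb was at 5.88, 5.31 and 4.31 FPKM at day 7 and 36.1, 33.3 and 33.7 FPKM at day 0 in NFIA-Tg. In WT it was at 5.91, 5.40 and 6.76 FPKM at day 7 and 39.5, 38.2 and 35.3 FPKM at day 0. Junb thus separated the days without overlap in either genotype, with changes of -2.53 in NFIA-Tg (adjusted p = 2.04e-11) and -2.46 in WT (adjusted p = 5.06e-11). Nr4a1 and Junb had the widest span over the 4 culture groups among the members, 12.2-fold and 7.29-fold between the highest and the lowest mean.

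**Figure D1:**
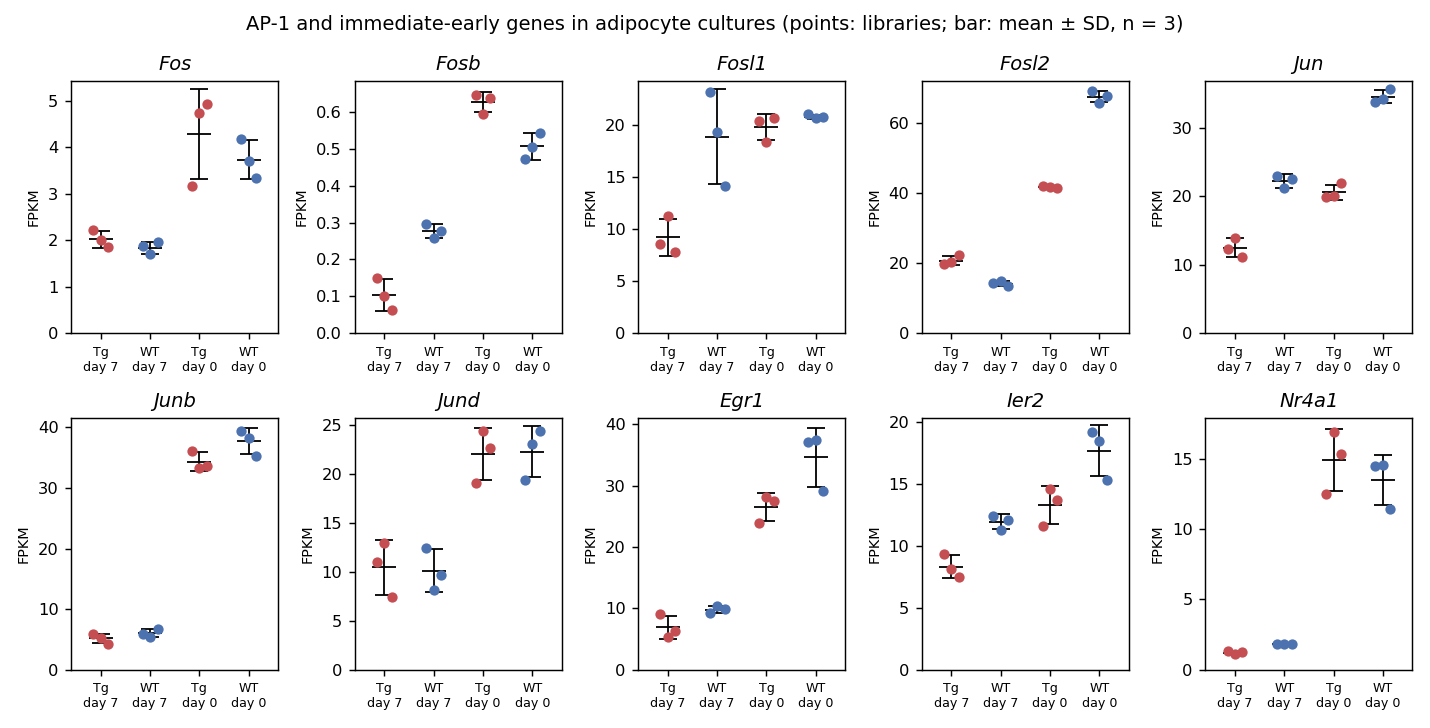
FPKM of the 10 members in each of the 12 culture libraries, with libraries as points and the mean ± SD of 3 as bars, by group from NFIA-Tg (Tg) day 7 to WT day 0 on the horizontal axis. Nr4a1 and Junb separate day 7 from day 0 in both genotypes, Jun separates the genotypes on both days, and Fosl2 is above WT at day 7 and below it at day 0 in NFIA-Tg.

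Egr1, a zinc finger transcription factor induced by serum, averaged 6.93 ± 1.91 FPKM at day 7 and 26.5 ± 2.28 FPKM at day 0 in NFIA-Tg (SD, n = 3 each), a change of -1.82 (adjusted p = 6.06e-08). In WT it averaged 9.79 ± 0.567 FPKM at day 7 and 34.6 ± 4.76 FPKM at day 0, a change of -1.71 (adjusted p = 1.55e-07). Egr1 fell in each genotype by a larger amount than Jun, Fos or Ier2, whose changes ran from -0.79 to -0.52. Fos, the founding member of its family, was low throughout the cultures, at 1.85 to 2.22 FPKM in NFIA-Tg and 1.70 to 1.95 FPKM in WT at day 7, and at 3.16 to 4.94 FPKM in NFIA-Tg and 3.33 to 4.18 FPKM in WT at day 0. Its change was -0.79 in NFIA-Tg (adjusted p = 3.26e-05) and -0.74 in WT (adjusted p = 7.48e-05). Jund, the third Jun family gene, averaged 10.5 ± 2.83 FPKM at day 7 and 22.1 ± 2.69 FPKM at day 0 in NFIA-Tg, with 10.1 ± 2.19 FPKM at day 7 and 22.3 ± 2.59 FPKM at day 0 in WT. Jund varied more between libraries of a group than Jun did, and its day 7 and day 0 values did not overlap.

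**Figure D2:**
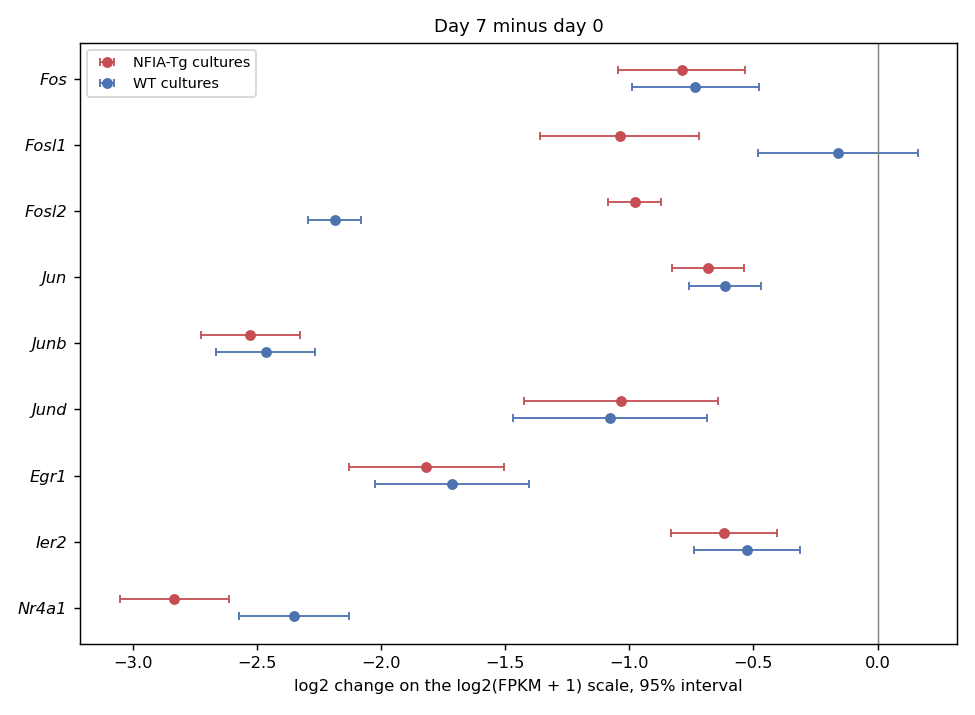
Change at day 7 relative to day 0 on the log2(FPKM + 1) scale (horizontal axis) for the 9 members tested, in NFIA-Tg and WT cultures, with 95% intervals from limma. All intervals lie below 0 except that of Fosl1 in WT, and the genotypes part most for Fosl2, at -0.98 in NFIA-Tg and -2.19 in WT.

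The differentiation response differed between genotypes for 3 of the 9 members, 1 with a higher and 2 with a lower value in NFIA-Tg. Of all tested genes, 29.5% were called higher and 42.6% lower in this contrast (72.1% in either direction), and the median was -0.07 over the members and -0.11 over all genes. Fosl2, a Fos family member without the strong activation domain, was at 19.6, 20.2 and 22.2 FPKM at day 7 and 42.0, 41.6 and 41.3 FPKM at day 0 in NFIA-Tg. In WT it was at 14.2, 14.7 and 13.3 FPKM at day 7 and 68.9, 65.6 and 67.6 FPKM at day 0. Each of the 4 groups of Fosl2 was apart from the others, and the order of the genotypes turned round between the days. The fall was -0.98 in NFIA-Tg and -2.19 in WT, and the difference of the falls was 1.21 (95% interval 1.06 to 1.36, adjusted p = 1.05e-08), higher in NFIA-Tg. Fosl1, its close relative, was at 8.58, 11.2 and 7.80 FPKM at day 7 in NFIA-Tg and 20.3, 18.3 and 20.6 FPKM at day 0. In WT it was at 23.1, 19.3 and 14.1 FPKM at day 7 and 21.0, 20.6 and 20.7 FPKM at day 0. Fosl1 fell by 1.04 in NFIA-Tg (adjusted p = 2.10e-05), and in WT its change of -0.16 (95% interval -0.48 to 0.16, adjusted p = 0.329) did not pass, although it passed with TPM scaling (-0.34) and with quantile normalization (-0.33). The difference of the Fosl1 changes was -0.88 (95% interval -1.33 to -0.43, adjusted p = 0.00223). For Nr4a1 the difference was -0.48 (95% interval -0.79 to -0.17, adjusted p = 0.00908), and with quantile normalization it was -0.33 and did not pass (adjusted p = 0.0523).

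Of the other 6 members, the differences lay between -0.10 (Egr1) and 0.05 (Jund). Their 95% intervals ran from -0.54 to 0.34 for Egr1 and from -0.51 to 0.60 for Jund, while those of Jun (-0.27 to 0.14) and Junb (-0.34 to 0.22) were narrower.

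The make-up of the Fos family shifted with these opposite moves, although its summed level did not stand far apart between genotypes at day 7, at 30.6 to 33.5 FPKM in NFIA-Tg and 29.6 to 39.4 FPKM in WT. Fosl2 made up 64.7 ± 4.65% of the family in NFIA-Tg day 7 libraries and 40.6 ± 4.49% in WT day 7 libraries (SD, n = 3 each). Fosl1 made up 28.6 ± 4.53% in NFIA-Tg and 53.3 ± 5.53% in WT. The ratio of Fosl1 to Fosl2 was 0.437, 0.554 and 0.351 in the NFIA-Tg day 7 libraries, against 1.63, 1.31 and 1.06 in the WT day 7 libraries. Fosl1 therefore exceeded Fosl2 in all 3 WT libraries and in none of the 3 NFIA-Tg libraries. At day 0 the ratio was 0.440 to 0.499 in NFIA-Tg and 0.304 to 0.314 in WT, so that the genotypes stood in the other order. These shares restate the levels of the genes and were given no test of their own.

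**Figure D3:**
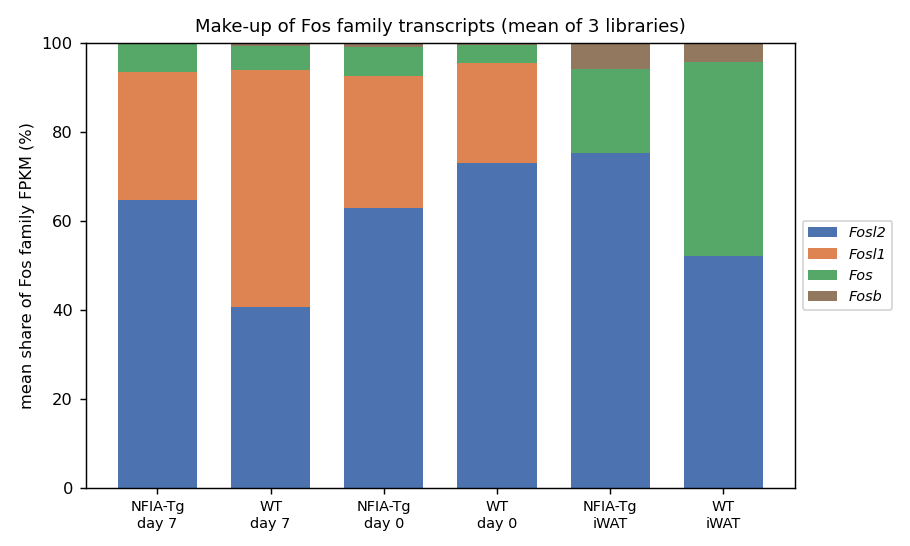
Mean share of each Fos family gene in the summed FPKM of the family (vertical axis, %), from 3 libraries a group, for 6 groups. Fosl1 holds 28.6% of the family in NFIA-Tg and 53.3% in WT at day 7 and is listed at 0 in both iWAT groups, where Fos holds 18.9% in NFIA-Tg and 43.7% in WT.

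At day 0, 4 of the 9 tested members were lower in NFIA-Tg and none was higher, against 34.9% of all tested genes called lower and 28.1% called higher (63% in either direction), with medians of -0.13 over the members and -0.03 over all genes. Jun, the most potent activator of its family, was at 19.9, 20.1 and 21.9 FPKM in NFIA-Tg day 0 libraries, against 33.9, 34.2 and 35.7 FPKM in WT day 0 libraries. The groups were far apart, and the change was -0.72 (SE 0.0668, adjusted p = 1.42e-06). Fosl2 was lower by a like amount, -0.68 (SE 0.0489, adjusted p = 1.40e-07). Ier2, a small nuclear protein gene of the immediate-early class, was at 11.6, 14.6 and 13.7 FPKM in NFIA-Tg and 19.2, 18.5 and 15.3 FPKM in WT, without overlap. Its change was -0.38 (adjusted p = 0.00441). Egr1 was at 23.9, 28.1 and 27.5 FPKM in NFIA-Tg and 37.2, 37.5 and 29.1 FPKM in WT, a change of -0.37 that passed narrowly (adjusted p = 0.0404). The Egr1 call at day 0 was lost under 10 of 23 alternatives, with adjusted p from 0.00705 to 0.131 over all of them, including the removal of any single NFIA-Tg day 0 library or of WT day 0 replicate 1 (-0.31) or 2 (-0.31).

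Fos, Fosl1, Junb, Jund and Nr4a1 did not pass at day 0, with changes from -0.13 (Junb) to 0.14 (Fos). For Fos the 95% interval ran from -0.11 to 0.40. NFIA-Tg day 0 replicate 1 was the lowest of its group for 6 of the 10 members, and without it Fos (0.31, adjusted p = 0.00743) and Nr4a1 (0.25, adjusted p = 0.0353) passed as higher in NFIA-Tg. Cell type markers moved with the day 0 comparison as well. Mature adipocyte markers summed to 70.6 to 89.3 FPKM in NFIA-Tg and 24.6 to 28.1 FPKM in WT, with 7 of 11 tested higher and none lower. Pericyte and smooth muscle markers summed to 515 to 627 FPKM in NFIA-Tg and 681 to 849 FPKM in WT at day 0, with 3 of 8 higher and 4 lower. Their part in the member values was not tested.

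At day 7, 5 of the 9 tested members were lower in NFIA-Tg and 1 was higher, against 51.1% of all tested genes called lower and 29.8% called higher (80.9% in either direction). The median over the members was -0.35, against -0.17 over all tested genes. Jun was at 12.4, 14.0 and 11.2 FPKM in NFIA-Tg day 7 libraries, against 23.0, 21.2 and 22.6 FPKM in WT day 7 libraries. It was thus lower in NFIA-Tg on both days, by -0.79 at day 7 (SE 0.0668, adjusted p = 2.22e-07), and its change with differentiation was of like size in both genotypes. Fosl1 was lower by -0.95 (SE 0.147, adjusted p = 6.26e-05) and Fosl2 higher by 0.53 (SE 0.0489, adjusted p = 5.39e-07), and the libraries of the genotypes overlapped for neither. Fosl2 was the 1 member called lower at day 0 and higher at day 7 in NFIA-Tg.

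Egr1 was at 9.06, 5.38 and 6.35 FPKM in NFIA-Tg and 9.20, 10.3 and 9.83 FPKM in WT at day 7, a change of -0.47 (adjusted p = 0.0089). Its highest NFIA-Tg library lay just below its lowest WT library. Ier2 was at 9.32, 8.14 and 7.48 FPKM in NFIA-Tg and 12.4, 11.3 and 12.1 FPKM in WT, a change of -0.48 (adjusted p = 0.000614). Nr4a1 changed by -0.35 (adjusted p = 0.00672) at low levels, without overlap of the genotypes. With quantile normalization the Egr1 (adjusted p = 0.0992) and Nr4a1 (adjusted p = 0.170) calls at day 7 were lost, and Fos passed as higher (0.28, adjusted p = 0.0411). That scaling moved the median change of all genes at day 7 by 0.14, and median-of-ratios scaling moved it by 0.11. Junb (-0.19, adjusted p = 0.0703) and Jund (0.03, adjusted p = 0.883) did not pass. Junb passed without WT day 7 replicate 2 (-0.26) and without NFIA-Tg day 7 replicate 1 (-0.27), and with TPM scaling (-0.28).

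**Figure D4:**
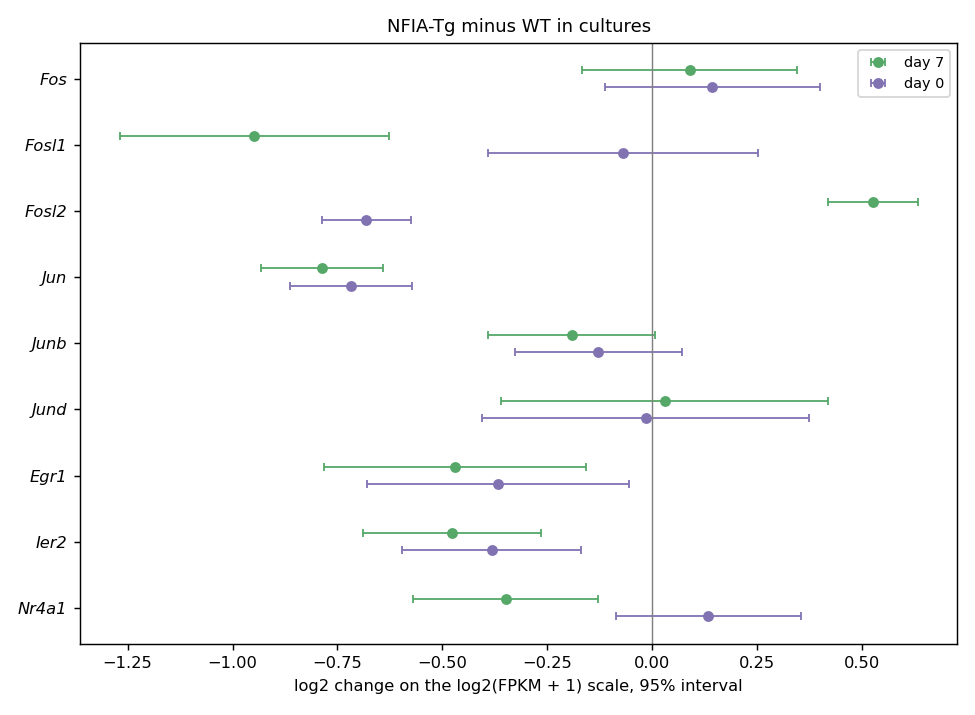
Change in NFIA-Tg relative to WT on the log2(FPKM + 1) scale (horizontal axis) for the 9 members tested in cultures, at day 7 and day 0, with 95% intervals from limma. Jun lies at about the same place on both days (-0.79 and -0.72), whereas Fosl2 lies at 0.53 at day 7 and -0.68 at day 0.

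Fosb, the second strong activator of its family, was at or below 0.648 FPKM in every culture library. It rested on 4 to 15 reads in NFIA-Tg and 21 to 28 in WT at day 7, and on 51 to 69 in NFIA-Tg and 42 to 51 in WT at day 0. The 4 groups did not overlap, in the order NFIA-Tg day 0, WT day 0, WT day 7 and NFIA-Tg day 7 from high to low. Without the filter on low values Fosb was tested, and it was lower in NFIA-Tg at day 7 (-0.21, adjusted p = 0.000129) and higher at day 0 (0.11, adjusted p = 0.0129), with a difference of the differentiation responses of -0.32 (adjusted p = 9.88e-05).

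Markers of cell types also moved with the day 7 and differentiation results. Of 11 tested preadipocyte and fibroblast markers, 10 were lower in NFIA-Tg at day 7, against 51.1% of all genes, and the summed level of the list was 366 to 475 FPKM in NFIA-Tg and 1823 to 2047 FPKM in WT. The defining fibroblast markers were above 0 in both, with Pdgfra at 3.20 to 4.31 FPKM in NFIA-Tg and 26.7 to 31.8 FPKM in WT at day 7. All 11 fell with differentiation in NFIA-Tg, against 41.5% of all genes, and 8 of 11 in WT, against 35.4%. Of 11 tested mature adipocyte markers, 5 were lower and 1 higher in NFIA-Tg at day 7, and their summed levels overlapped between genotypes. Their differentiation responses were lower in NFIA-Tg for 10 and higher for none, against 42.6% and 29.5% of all genes. Of 8 pericyte and smooth muscle markers, 6 were lower and 2 higher at day 7, with sums of 55.1 to 61.1 FPKM in NFIA-Tg and 116 to 135 FPKM in WT. Macrophage markers were low in the cultures, with Adgre1 listed at 0 in all 6 day 7 libraries. Their summed level at day 7 was 8.44 to 8.97 FPKM in NFIA-Tg and 5.06 to 5.17 FPKM in WT. Cd68 was at 6.83 to 7.22 FPKM in NFIA-Tg and 2.65 to 2.66 FPKM in WT at day 7. Csf1r went the other way, at 0 to 0.0195 FPKM in NFIA-Tg and 0.164 to 0.211 FPKM in WT. Of the heat shock and handling genes, 10 of 13 were lower and 2 higher in NFIA-Tg at day 7, against 51.1% and 29.8% of all genes. The part of these moves in the member values was not tested, and in bulk samples fewer cells of a type and less RNA per cell cannot be told apart.

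In iWAT the comparison asks how the members stood in transgenic fat tissue. None of the 9 tested members was called in either direction, against 5.96% of the 12396 tested genes called higher and 5.44% called lower (11.4% in either direction) in limma. The median change was -0.55 over the members and 0.05 over all tested genes. Fos was at 5.82, 2.73 and 1.40 FPKM in NFIA-Tg iWAT and 8.88, 5.87 and 17.7 FPKM in WT iWAT. Its highest NFIA-Tg library lay just below its lowest WT library, and the WT libraries differed widely among themselves. The change was -1.46 (95% interval -2.46 to -0.46, unadjusted p = 0.00959, adjusted p = 0.0674). Fos was the 1 member of the 9 with an unadjusted p under 0.05 in limma, where 28.6% of all tested genes had one. Without NFIA-Tg iWAT replicate 1, both Fos (-1.86) and Jund (-0.89) passed as lower, each with an adjusted p of 0.0337.

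Of the other tested members, 6 had estimates below 0 in NFIA-Tg iWAT and 2 above. Egr1 was at 8.15, 7.56 and 2.38 FPKM in NFIA-Tg iWAT and 9.48, 5.37 and 20.3 FPKM in WT iWAT, a change of -0.81 (95% interval -1.92 to 0.31, adjusted p = 0.313). Jun averaged 39.4 ± 15.3 FPKM in NFIA-Tg iWAT and 33.9 ± 6.06 FPKM in WT iWAT (SD, n = 3 each), a change of 0.16 (95% interval -0.40 to 0.72). Fosl2 averaged 12.5 ± 3.93 FPKM in NFIA-Tg iWAT and 11.6 ± 1.36 FPKM in WT iWAT. The libraries of both genotypes overlapped for each of these 3 genes. Within the Jun family, Jun was at 44.6 ± 5.78% of Jun family FPKM in NFIA-Tg iWAT and 32.0 ± 1.47% in WT iWAT, and Jund at 41.7 ± 1.68% in NFIA-Tg iWAT and 50.6 ± 2.93% in WT iWAT. The libraries of the genotypes overlapped for neither share, and the shares were given no test.

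**Figure D5:**
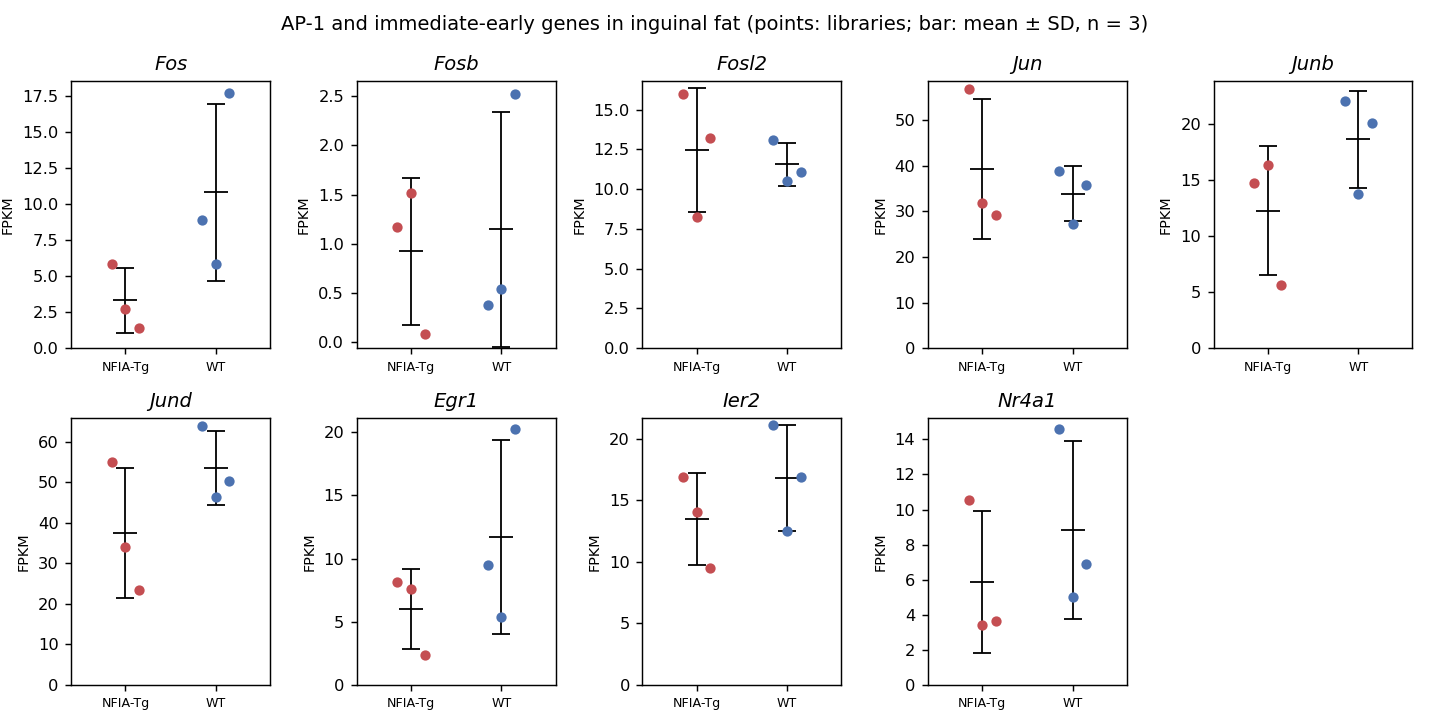
FPKM of the 9 members above 0 in each of the 6 iWAT libraries, NFIA-Tg left and WT right, with libraries as points and the mean ± SD of 3 as bars. Fos is the member whose genotypes do not overlap, at 1.40 to 5.82 FPKM in NFIA-Tg and 5.87 to 17.7 FPKM in WT, and it was not called. How many of all genes lie apart in the same way was not counted.

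The spread between iWAT libraries was shared by many members. NFIA-Tg iWAT replicate 3 was the lowest of the 6 libraries for 6 of 9 members. WT iWAT replicate 1 was the highest for 4, WT iWAT replicate 3 for 3 and NFIA-Tg iWAT replicate 1 for 2, while WT iWAT replicate 2 was the lowest of its group for 8 of 9. The coefficient of variation of Fos was 68.4% in NFIA-Tg iWAT and 57.0% in WT iWAT, against 9.10% in NFIA-Tg and 7.14% in WT day 7 cultures. Markers of other cells also differed between the tissue groups. Of 11 endothelial markers, 6 were lower, with a summed level of 532 to 706 FPKM in NFIA-Tg iWAT and 983 to 1020 FPKM in WT iWAT. Skeletal muscle markers summed to 13.7 to 43.7 FPKM in NFIA-Tg iWAT and 124 to 184 FPKM in WT iWAT. Of 14 macrophage markers, none was higher and 1 lower. The part of these differences in the member values was not tested.

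Fosl1 was listed at 0 in all 6 iWAT libraries, whereas it was at 7.80 to 11.2 FPKM in NFIA-Tg and 14.1 to 23.1 FPKM in WT cultures at day 7. Of the 6457 shared genes at 5 FPKM or more in every culture library, it was the single one listed at 0 in every iWAT library. At 1 FPKM or more in every culture library, 12 of 9827 genes were so listed. This count was made after the values of Fosl1 were seen. The tissue and culture tables were made separately, and a value of 0 in a file without reads can be a failed estimate.

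The genotype effect in iWAT was set against that at day 7, each taken within its own tables. Of the 9 members above 0 in iWAT, it differed for 2, Jun with a higher and Fos with a lower value in iWAT. Of all 13101 tested genes, 35.8% were called higher and 18.5% lower (54.3% in either direction), and the median was -0.34 over the 9 members and 0.18 over all genes. For Fos the effect was -1.46 in iWAT and 0.09 at day 7, a difference of -1.55 (95% interval -2.66 to -0.44, adjusted p = 0.0224), and with no filter on low values its adjusted p was 0.0512. For Jun it was 0.16 in iWAT and -0.79 at day 7, a difference of 0.95 (95% interval 0.31 to 1.58, adjusted p = 0.0158). The Jun call was lost with median-of-ratios scaling (0.74, adjusted p = 0.0523) and with quantile normalization (0.76, adjusted p = 0.0504). Fosl1, listed at 0 in iWAT, entered the fit through its day 7 values alone, so its value of 0.95 is the day 7 effect with its sign turned and no test of tissue against culture. Fosl2 (-0.65) and Jund (-0.92) passed as well without NFIA-Tg iWAT replicate 1, and Fosl2 (-0.67) with median-of-ratios scaling.

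Partners and relatives of AP-1, other basic leucine zipper genes that pair or compete with its subunits, were counted next. At day 7, 13 of 17 tested were higher and 2 lower in NFIA-Tg, against 29.8% higher and 51.1% lower over all tested genes, and the median was 0.37 against -0.17. Atf4, the effector of the integrated stress response, averaged 446 ± 7.49 FPKM in NFIA-Tg and 168 ± 7.21 FPKM in WT at day 7, a change of 1.41 (adjusted p = 1.15e-11). Maff, a small Maf protein without an activation domain, averaged 20.9 ± 1.02 FPKM in NFIA-Tg and 6.11 ± 1.25 FPKM in WT, a change of 1.63 (adjusted p = 1.03e-08). Maf was lower in NFIA-Tg at day 7, with a change of -1.61 (adjusted p = 6.51e-09). In iWAT Maff went the other way, at 5.84, 3.38 and 2.98 FPKM in NFIA-Tg and 17.4, 11.4 and 11.8 FPKM in WT, a change of -1.54 (adjusted p = 0.00602), and the difference of its genotype effects was -3.17 (adjusted p = 2.94e-06). Atf3, a stress-induced repressor, was also lower in iWAT (-1.06, adjusted p = 0.0417), so 0 of 18 were higher and 2 lower there, against 5.96% higher and 5.44% lower over all genes. With differentiation Atf3 rose in both genotypes, by 2.41 in NFIA-Tg and 2.15 in WT. Jdp2, a repressor that pairs with Jun proteins, changed by -1.15 in NFIA-Tg and -1.36 in WT. At day 0, 8 of 17 were higher and 2 lower, against 28.1% and 34.9% over all genes. With differentiation 7 were higher and 8 lower in NFIA-Tg, against 45.7% and 41.5%, and 4 were higher and 9 lower in WT, against 46.2% and 35.4%.

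Of 23 tested genes known as AP-1 targets, 19 were lower and 4 higher at day 7 than at day 0 in NFIA-Tg (median -2.24), where 41.5% of all genes were lower and 45.7% higher (median 0.05). In WT 21 were lower and none was higher (median -1.63), where 35.4% of all genes were lower and 46.2% higher (median 0.09). Fn1, encoding fibronectin, changed by -4.90 in NFIA-Tg and -3.02 in WT, and Mmp14, a membrane collagenase, changed by -4.16 in NFIA-Tg and -2.74 in WT. Plau, encoding urokinase, averaged 0.976 ± 0.096 FPKM in NFIA-Tg and 8.47 ± 0.754 FPKM in WT at day 7. At day 7, 15 of the 23 were lower and 5 higher in NFIA-Tg, against 51.1% and 29.8% over all genes, and Hmox1, heme oxygenase, was higher by 3.24 (adjusted p = 4.81e-12). At day 0, 9 were lower and 7 higher, against 34.9% and 28.1%. In iWAT 4 of 21 were lower and 1 higher, against 5.44% and 5.96%, and those lower included Ccl2, a monocyte chemokine, at 1.36, 2.93 and 1.03 FPKM in NFIA-Tg and 11.1, 7.85 and 8.93 FPKM in WT (-1.94, adjusted p = 0.00341).

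Of 42 other immediate-early genes tested, 31 fell and 10 rose with differentiation in NFIA-Tg (median -1.04), against 41.5% and 45.7% over all genes. In WT 27 fell and 9 rose (median -0.49), against 35.4% and 46.2%. Phlda1, an early growth factor response gene, was higher in NFIA-Tg at day 0 (0.97, adjusted p = 5.30e-09) and lower at day 7 (-1.40, adjusted p = 4.90e-11), a difference of -2.37. Gadd45a, a growth arrest gene, averaged 62.5 ± 2.45 FPKM in NFIA-Tg and 16.4 ± 1.40 FPKM in WT at day 7, and it was lower in NFIA-Tg iWAT (-0.83, adjusted p = 0.00888). Rgs2 (1.21, adjusted p = 0.00765) and Gadd45b (0.82, adjusted p = 0.0215) were higher in NFIA-Tg iWAT. At day 7 Gadd45b was lower in NFIA-Tg (-1.60, adjusted p = 1.01e-10). Between genotypes 9 were higher and 24 lower at day 7, against 29.8% and 51.1% over all genes, a share of lower calls near that of all genes. At day 0, 17 were higher and 16 lower, against 28.1% and 34.9%, and in iWAT 3 of 38 were higher and 3 lower, against 5.96% and 5.44%.

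Of 34 upstream genes of the serum response and MAP kinase pathway, 23 were lower and 4 higher in NFIA-Tg at day 7 (median -0.42, against -0.17 over all genes, of which 51.1% were lower and 29.8% higher). Spry4 and Dusp4, feedback inhibitors that ERK signalling induces, were lower by -2.39 and -1.72. Spry4 averaged 2.53 ± 0.111 FPKM in NFIA-Tg and 17.5 ± 0.727 FPKM in WT at day 7, and 3.70 ± 0.141 FPKM in NFIA-Tg and 1.19 ± 0.281 FPKM in WT at day 0, so its genotypes too stood in the other order between the days (difference of responses -3.50, adjusted p = 8.05e-11). At day 0, 15 were lower and 6 higher, against 34.9% and 28.1% over all genes. In iWAT limma called none of 34, and 8 had an unadjusted p under 0.05, where 28.6% of all genes did. The most abundant of the 34, Mapk3 (ERK1), averaged 93.8 ± 7.33 FPKM in NFIA-Tg iWAT and 120 ± 0.691 FPKM in WT iWAT (-0.35, adjusted p = 0.0519). With differentiation 14 were higher and 18 lower in NFIA-Tg, against 45.7% and 41.5% over all genes, and 15 were higher and 11 lower in WT, against 46.2% and 35.4%. Of the heat shock and handling genes, 2 of 13 were higher and none lower in NFIA-Tg iWAT, against 5.96% and 5.44% over all genes, and Dnaja1, a co-chaperone, changed by 0.61 (adjusted p = 0.0168). At day 0, 3 were higher and 5 lower, against 28.1% and 34.9%. With differentiation 3 were higher and 9 lower in NFIA-Tg, and 4 were higher and 7 lower in WT, against the shares just given.

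Over the 12 culture libraries, the genes whose log2(FPKM + 1) followed the members most closely, of 9978 at 5 FPKM or more in at least 1 group, are given as a description. For Jun they were Armcx1 (Pearson's r = 0.992), Gla (0.991) and Axin1 (0.989). For Egr1 they were Sppl3 (0.991), Ralgds (0.990) and Kctd11 (0.990), and for Fos Otud7b (0.974), Nthl1 (0.964) and Ift46 (0.961). The 12 points share 4 groups, so any gene with the same group order has a high r.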

How the data were processed

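RNA-seq was made from 6 iWAT and 12 culture samples. Trizol and RNeasy extraction and the TruSeq stranded mRNA kit were used, per the labels' protocols. STAR 2.7.8a, StringTie 2.1.1 and build mm9 are named, without roles, in the submitters' processing notes. The sources used here give neither the annotation nor the counting rule. The deposited tables give, per the file headers, 1 FPKM value and a length per gene. Symbols listed more than once in iWAT (180 symbols, 410 entries) were added up. Culture FPKM multiplied by length gave whole reads for 100% of values within a tolerance of 0.01. Over 6895 genes, iWAT levels relative to WT day 7 did not follow the ratio of the lengths listed in the 2 sets of tables (slope -0.0281 on log2 scales), so they were compared between genes as FPKM per transcript. Levels in iWAT and cultures come from separately made tables.

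The members and gene lists were chosen with earlier results of these data known. Groups were taken from the labels. Fits used limma 3.58.1 (R 4.3.3) on log2(FPKM + 1), eBayes with a trend, on genes with FPKM of at least 1 in at least 3 fitted samples. All tests were two-sided, with the Benjamini-Hochberg method applied across every gene tested. The iWAT samples, the 12 culture samples, and the 6 iWAT with the 6 day 7 samples were fitted separately, and culture comparisons share samples. Named genes of the pathway lists come from a set fixed by rule. Per comparison and list, it held the 3 called with the smallest adjusted p, or the most abundant where none was called. Only some of that set are named in the text, and that choice followed no rule. The fits were checked on simulated data. The alternatives tried were pseudocounts of 0.1 and 0.5, the filter dropped or set at FPKM 5, scaling by quantiles, by TPM or by median of ratios, eBayes without the trend or robust, a replicate block, each library left out, and, in cultures, voom on recovered reads. Promoter windows are from RefSeq (GRCm38.p6). Coordinates of the deposited build were not used.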

Additional observations from a re-analysis of the deposited data

Results flagged for a closer look

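The change with differentiation differed between genotypes for 3 members, by a test of the difference itself. The difference, NFIA-Tg minus WT, was 1.21 for Fosl2, which fell less in NFIA-Tg than in WT. It was -0.88 for Fosl1 and -0.48 for Nr4a1, whose changes were further below 0 in NFIA-Tg than in WT. The Nr4a1 call was lost with quantile normalization. The genotype effect differed between iWAT and day 7 cultures for 2 members, again by a test of the difference. The difference, iWAT minus day 7, was -1.55 for Fos and 0.95 for Jun. The Fos call was lost without the filter on low values, and the Jun call with median-of-ratios or quantile scaling. That fit used a single spread for tissue and cultures, although Fos varied more in tissue. The same contrast gave 0.95 for Fosl1, which is listed at 0 in every iWAT library, so that this value restates the day 7 effect and tests no difference. With 3 libraries a group, single libraries were not screened as outliers.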

How the results depend on the processing

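Over 64 combinations of member and comparison, 1386 alternative values were computed. Of these, 1357 kept their side of the threshold, 16 lost a call and 13 gained one. Of 33 calls, 27 held under every alternative run and none changed sign. Both counts include Fosl1 in the iWAT and day 7 contrast, which tests no difference. The calls of members moved by more than 1.5 times for 2 comparisons, both without NFIA-Tg iWAT replicate 1. Leaving out each library gave 0 to 2 members called for genotype in iWAT (0 with all libraries) and 3 to 5 for the iWAT and day 7 contrast (3 with all, counting Fosl1). All genes called in iWAT were 1413 with all libraries, 934 without the filter, and 617 to 1262 with a library left out (638 without NFIA-Tg iWAT replicate 2, 745 without NFIA-Tg iWAT replicate 3, 814 without WT iWAT replicate 2 and 617 without WT iWAT replicate 3). Depth is unknown there. The cause of these moves was not tested. Scaling changed the balance of all calls, higher against lower. In iWAT it was 739 to 674, and 602 to 810 with median-of-ratios or 669 to 807 with quantile scaling. At day 0 it was 3533 to 4378, and 3947 to 3878 with median-of-ratios scaling. At day 7 it was 3746 to 6409, and 4670 to 5197 with quantile normalization. For differentiation in NFIA-Tg it was 5741 to 5209, and 4646 to 6308 with TPM. For differentiation in WT it was 5796 to 4450, and 4632 to 5492 with TPM or 4775 to 5486 with quantile normalization. For the difference of responses it was 3701 to 5350, and 4662 to 4373 with quantile normalization. For iWAT against day 7 it was 4690 to 2430, against 3322 to 3321 with median-of-ratios and 3576 to 3043 with quantile scaling. The median change of all genes moved by up to -0.23, for differentiation in NFIA-Tg with TPM.

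Replicate numbers are shared between groups, but over all tested genes same-numbered samples deviated together weakly at most (r from -0.108 to 0.156 over 21 pairs). Of the 9 members above 0 in iWAT, replicate 1 was the highest of its group for 7 in NFIA-Tg and 6 in WT. The lowest was replicate 3 for 7 members in NFIA-Tg and replicate 2 for 8 in WT. With a replicate block, 3 members were called at day 0 in place of 4, since Egr1 lost its call (adjusted p = 0.055). Called genes then numbered 1282 in iWAT, 7822 at day 0 and 10136 at day 7. The block changed no other member call.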
